A study of Homo sapiens with 6 samples.

Results

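Chromosome 19 is the human chromosome with the most protein-coding genes per megabase, and its regulatory elements in K562 cells are described here along its length. The elements were the dREG peaks whose first column named chromosome 19: 1693 peaks for PRO-seq 1M, 2261 for qPRO-seq 1M and 1038 for qPRO-seq 250k. Together these were 4992 of the 78785 peaks deposited on every sequence. Precision run-on sequencing (PRO-seq) lets engaged RNA polymerases in permeabilized cells add a biotin-tagged nucleotide and then sequences the tagged nascent RNA. dREG is a classifier that scans such data for the paired, diverging transcription found at active promoters and enhancers. K562 is an established human leukaemia line, and all cultures were untreated. PRO-seq 1M used the published protocol on 1M permeabilized cells, with 3 affinity purifications and 11 PCR cycles. qPRO-seq 1M used a shortened protocol on the same input, with 1 purification and 11 cycles, and qPRO-seq 250k used it on 250k cells with 14 cycles. Each group had 2 biological replicates at least 3 passages apart, but only 1 list, so no replicate spread was at hand for any difference between lists. Read depth is unknown for the lists. Intervals in parentheses are 95% intervals that cover counting error only, and neighbouring peaks are not independent. The labels call K562 lymphoblastoid. The erythroid markers KLF1, EPOR, GATA1, TAL1, NFE2, GFI1B and HBG1 had a peak at a transcript start in all 3 lists. The B lymphoid markers CD79A, CD22, CD37, MS4A1, PAX5 and CD79B had none, and EBF1 had one in both 1M lists. None of 5 T lymphoid markers had one.

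Krüppel-associated zinc-finger genes encode DNA-binding repressors that mainly act on transposable elements, and on chromosome 19 they lie in long tandem clusters made by gene duplication. The same chromosome holds other tandem families with tissue-restricted use, among them the kallikreins (KLK), the pregnancy-specific glycoproteins (PSG), and the leukocyte receptors LILR and KIR. Between these clusters lie many housekeeping genes and the erythroid regulator KLF1, whose product switches on globin and red-cell membrane genes.

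The bases upstream of 6 genes are printed to show the kinds of promoter that did and did not carry a peak. They come from RefSeq (GRCh38.p14), are read 5′ to 3′ on the gene's strand and hold no annotated exon base. Capitals mark CG dinucleotides. The first pair are KLF1 (minus strand, chr19:12887202-12887451) and JUNB (plus strand, chr19:12791236-12791485), each with a start peak in all 3 lists. JUNB encodes an AP-1 subunit.
KLF1: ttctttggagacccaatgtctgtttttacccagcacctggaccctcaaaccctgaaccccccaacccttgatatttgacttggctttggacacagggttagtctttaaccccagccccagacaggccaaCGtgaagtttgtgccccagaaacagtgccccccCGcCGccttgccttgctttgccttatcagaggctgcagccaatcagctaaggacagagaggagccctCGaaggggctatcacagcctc
JUNB: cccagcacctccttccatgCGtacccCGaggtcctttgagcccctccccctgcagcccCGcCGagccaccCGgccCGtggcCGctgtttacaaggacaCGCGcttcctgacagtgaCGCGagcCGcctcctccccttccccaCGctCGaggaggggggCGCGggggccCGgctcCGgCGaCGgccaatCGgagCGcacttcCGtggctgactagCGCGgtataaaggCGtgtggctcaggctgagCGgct
The next pair belong to zinc-finger genes with a start peak in all 3 lists, ZNF460 (plus strand, chr19:57279732-57279981) and ZNF564 (minus strand, chr19:12551543-12551732).
ZNF460: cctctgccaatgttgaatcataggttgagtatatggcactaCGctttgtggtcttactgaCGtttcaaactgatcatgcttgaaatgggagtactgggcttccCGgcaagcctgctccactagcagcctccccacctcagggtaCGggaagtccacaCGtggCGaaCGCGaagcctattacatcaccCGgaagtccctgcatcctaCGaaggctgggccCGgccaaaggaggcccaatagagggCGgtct
ZNF564: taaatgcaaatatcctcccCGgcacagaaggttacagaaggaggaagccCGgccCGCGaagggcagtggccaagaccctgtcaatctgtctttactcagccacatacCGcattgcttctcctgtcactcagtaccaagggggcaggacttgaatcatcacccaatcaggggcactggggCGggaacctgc
The last pair had no start peak in any list and lie in a peak-free stretch described further on. KIR3DL1 (plus strand, chr19:54816218-54816467) encodes a receptor of natural killer cells, and RPS9 (plus strand, chr19:54200608-54200741) a protein of the small ribosomal subunit.
KIR3DL1: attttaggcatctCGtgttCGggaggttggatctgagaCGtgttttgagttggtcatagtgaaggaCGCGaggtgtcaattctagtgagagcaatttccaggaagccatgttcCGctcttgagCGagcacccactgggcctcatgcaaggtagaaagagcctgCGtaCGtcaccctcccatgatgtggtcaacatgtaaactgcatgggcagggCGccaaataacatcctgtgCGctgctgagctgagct
RPS9: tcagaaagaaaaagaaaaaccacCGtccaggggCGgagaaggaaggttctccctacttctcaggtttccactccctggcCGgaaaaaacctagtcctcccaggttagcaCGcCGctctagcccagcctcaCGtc
The KLF1 stretch held 4 CG pairs in 250 bases and the JUNB stretch 27. ZNF460 had 12 and KIR3DL1 11 in the same length. The JUNB stretch had a CCAAT box, a TATA box and an ETS motif. The KLF1 stretch had a CCAAT box alone among the 6 motifs searched. The GATA motif was searched as AGATAA alone, and other forms of a GATA site were not looked for. ZNF460 and ZNF564 each had a CCAAT box and a GC box, and RPS9 had a GC box. KIR3DL1 had none of the 6 in these bases.

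Peaks on chromosome 19 were dense, though by a smaller factor than its genes. Measured to the end of its last annotated gene, the chromosome carried 28.9 peaks per Mb for PRO-seq 1M, 38.6 for qPRO-seq 1M and 17.7 for qPRO-seq 250k. The other chromosomes (1 to 18, 20 to 22 and X) carried 7.75, 12.1 and 4.89 per Mb, so that chromosome 19 was 3.73, 3.19 and 3.62 times as dense. Its 1472 protein-coding genes gave 25.1 genes per Mb against 6.19 elsewhere, a ratio of 4.06. Chromosome 19 ranked 1 of 23 in peaks per Mb and in coding genes per Mb in each list. Per coding gene the order turned. Per coding gene there were 1.15, 1.54 and 0.705 peaks on chromosome 19 and 1.25, 1.95 and 0.790 elsewhere, with the lists ordered as before (the published protocol, then the short one at high and at low input). The peaks covered 0.794 Mb, 1.03 Mb and 0.454 Mb of the chromosome, with median widths of 450 bp, 430 bp and 410 bp.

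The lists were of unequal length, and chromosome 19 took an unequal part of each. Of the peaks on chromosomes 1 to 22 and X it held 6.85% for PRO-seq 1M, 5.92% for qPRO-seq 1M and 6.67% for qPRO-seq 250k. With each list reduced to its 15562 top-scored peaks, chromosome 19 kept 1041 for PRO-seq 1M, 908 for qPRO-seq 1M and 1038 for qPRO-seq 250k. The qPRO-seq 1M list, the longest as deposited, then had the fewest peaks here.

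A peak was called start-near when an annotated GENCODE transcript start lay within 500 bp of it, and distal otherwise. On chromosome 19, 1219 PRO-seq 1M peaks were start-near (72%, 69.8 to 74.1), against 68.1% over chromosomes 1 to 22 and X. In the qPRO-seq 1M list 1462 were (64.7%, 62.7 to 66.6), against 54.2%. In the qPRO-seq 250k list 803 were (77.4%, 74.7 to 79.8), against 73.5%. The chromosome 19 share exceeded that of the other chromosomes by 4.20 points (1.94 to 6.38), 11.2 points (9.11 to 13.2) and 4.14 points (1.40 to 6.69). Gene number moved with this difference. Within groups of 1 Mb bins of like coding-gene number, a comparison chosen after seeing the data, the difference was -1.36 points (-3.79 to 1.07) for PRO-seq 1M, 1.10 points (-1.14 to 3.33) for qPRO-seq 1M and 0.948 points (-1.95 to 3.85) for qPRO-seq 250k. All 3 of those intervals include 0. The difference also had an interval that includes 0 for PRO-seq 1M with equal list sizes (1.92 points), for PRO-seq 1M and qPRO-seq 250k with peaks at or above the list median (0.537 and 0.443 points), and for qPRO-seq 250k with p of at most 0.01 (2.69 points). The single groups went both ways. For PRO-seq 1M in bins with 30 or more coding genes the difference was -3.22 points (-6.51 to -0.0329), and for qPRO-seq 1M it was 17.9 points (6.58 to 27.3) in bins with 5 to 9 and 5.73 points (1.74 to 9.54) in bins with 20 to 29. The other 15 intervals include 0.

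Distal elements on chromosome 19 lay nearer to annotated transcript starts than those elsewhere. The chromosome also has more coding genes per Mb (25.1 against 6.19), and the distances below were not compared at like gene number. The PRO-seq 1M list had 105 exonic, 202 intronic and 167 intergenic distal peaks, the qPRO-seq 1M list 157, 346 and 296, and the qPRO-seq 250k list 37, 102 and 96. The median distance to the nearest transcript start was 2958.5 bp, 3006 bp and 2447 bp, where other chromosomes had 6136 bp, 6415.5 bp and 5816.5 bp. Only 1, 2 and 1 distal peaks lay beyond 50 kb of a start (0.211%, 0.25% and 0.426%), compared with 6.91%, 7.58% and 7.15% of distal peaks elsewhere. Distal peaks per Mb were 3.24, 2.43 and 3.06 times those of other chromosomes. Per coding gene they were fewer, at 0.322, 0.543 and 0.160 against 0.403, 0.908 and 0.212.

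**Figure D1:**
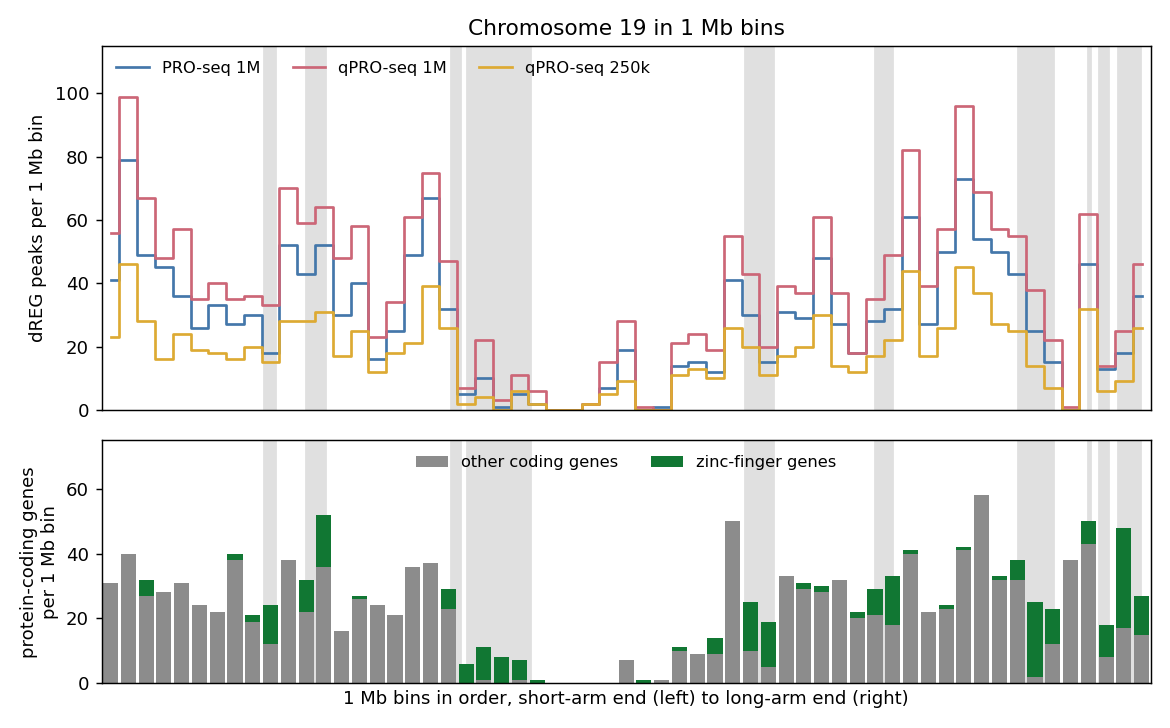
Upper panel, dREG peaks per 1 Mb bin (y axis, number of peaks) in the 3 lists along chromosome 19, from the short-arm end at left to the long-arm end at right; lower panel, protein-coding genes per bin, with zinc-finger genes in green and the 10 zinc-finger clusters shaded in grey in both panels. The 3 lines rise and fall together, reach 79, 99 and 46 peaks in the second bin, and fall to 0 or 1 in a bin of 38 coding genes near the right end.

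Along the chromosome, the 59 bins of 1 Mb held a median of 28, 37 and 17 peaks in the 3 lists. The densest bin in each list was 1 to 2 Mb, on the short arm, with 79, 99 and 46 peaks and 40 coding genes. It holds the start of TCF3, a helix-loop-helix transcription factor, and 52 of its 79 PRO-seq 1M peaks were start-near. The next densest in the qPRO-seq 1M list were 48 to 49 Mb (73, 96 and 45 peaks) and 45 to 46 Mb (61, 82 and 44). The bin at 48 to 49 Mb was rich in distal elements, which made up 49 of its 96 qPRO-seq 1M peaks. The bin at 45 to 46 Mb, with 41 coding genes, had 18 distal peaks of 82.

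The fewest peaks, among bins with annotated genes, were found in 3 bins. The bin at 30 to 31 Mb held 1 peak, in the qPRO-seq 1M list, and the bin at 31 to 32 Mb held 1 peak, in the PRO-seq 1M list. Each of these has 1 coding gene. The bin at 54 to 55 Mb held 1 peak, in the qPRO-seq 1M list, although it has 38 coding genes. Around the centromere, the bins at 25 to 26 Mb and 26 to 27 Mb held no peak in any list.

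Peaks per bin followed coding genes other than zinc-finger genes, which were taken by a ZNF or ZFP symbol. Across the 59 bins, Spearman's rho between peaks and coding genes was 0.784 for PRO-seq 1M, 0.784 for qPRO-seq 1M and 0.766 for qPRO-seq 250k. With zinc-finger genes left out of the gene number it was 0.808, 0.793 and 0.786, and against zinc-finger genes alone -0.0470, -0.0313 and 0.0161. Between lists rho was 0.982 for PRO-seq 1M against qPRO-seq 1M, and 0.962 for either against qPRO-seq 250k. These values describe bins of 1 chromosome that share their gene annotation and, for each list, its libraries.

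**Figure D2:**
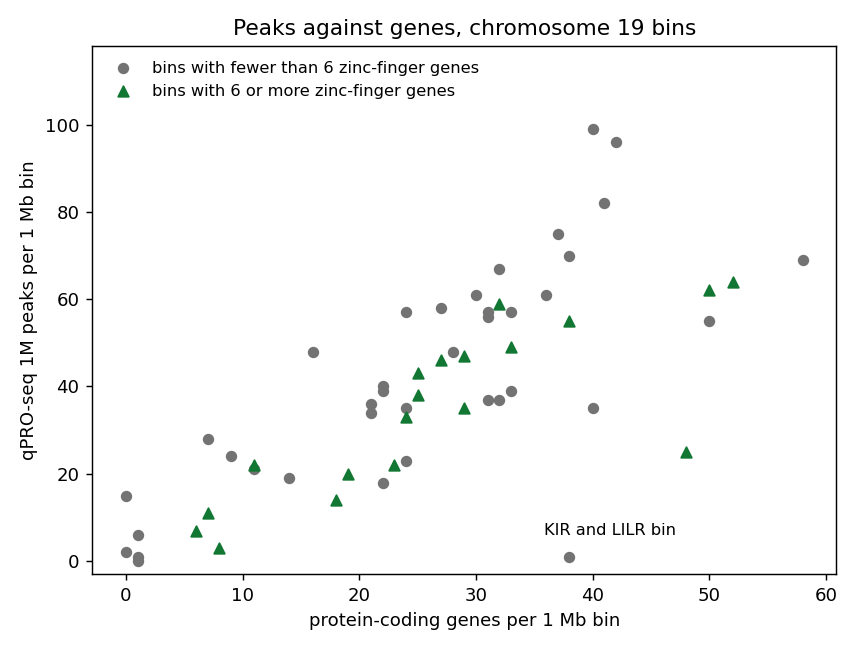
qPRO-seq 1M peaks per 1 Mb bin (y axis) against protein-coding genes per bin (x axis) for the chromosome 19 bins with an annotated gene; triangles mark bins with 6 or more zinc-finger genes. Peak number climbs with gene number, and the bin at 54 to 55 Mb, with 38 coding genes and 1 peak, lies apart from the other gene-rich bins.

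Protein-coding genes were then read one by one, and a gene was given a start peak if 1 or more of its annotated transcript starts had a peak at most 500 bp away. On chromosome 19, 815 of 1472 genes had one in PRO-seq 1M (55.4%), 858 in qPRO-seq 1M (58.3%) and 659 in qPRO-seq 250k (44.8%). The shares over chromosomes 1 to 22 and X were 52.9%, 54.5% and 44.0%. Chromosome 19 exceeded the other chromosomes by 2.69 points (0.0416 to 5.32), 4.12 points (1.48 to 6.71) and 0.859 points (-1.77 to 3.51). For genes without a ZNF or ZFP symbol the differences were 1.95 points (-0.949 to 4.82), 1.91 points (-0.980 to 4.78) and 0.0503 points (-2.80 to 2.94), with 0 in each interval. Start peaks in all 3 lists were found for 631 genes and in no list for 567, and 143 genes had them in both 1M lists alone.

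**Figure D3:**
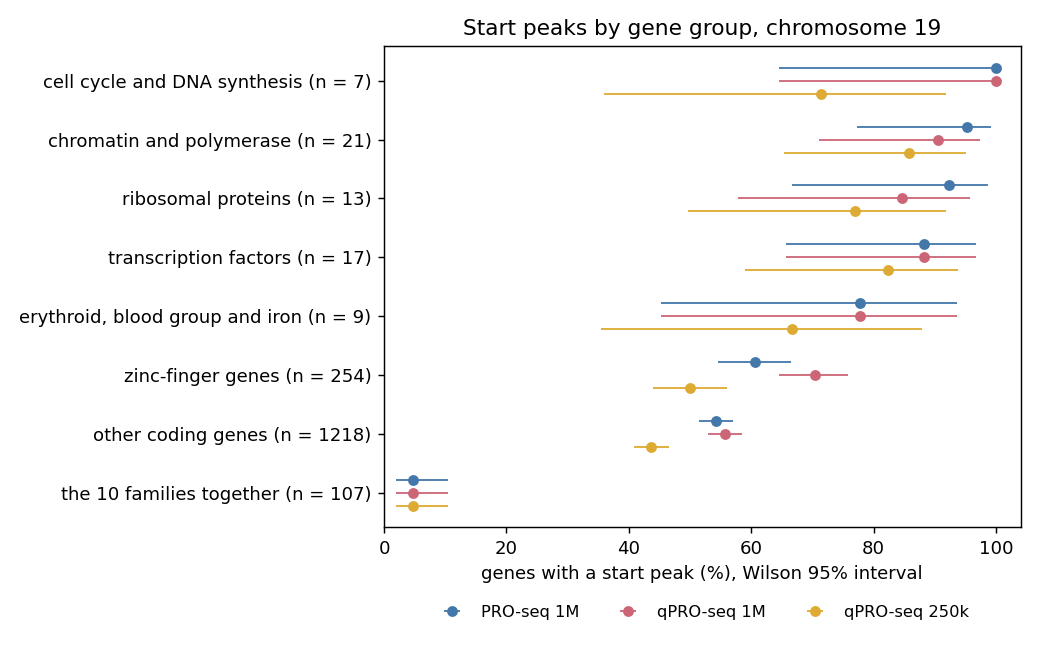
Share of genes with a start peak (x axis, percent, with Wilson 95% intervals for counting error) for groups of protein-coding genes of chromosome 19, by list. The chromatin, ribosomal, transcription factor and cell cycle groups lie between 71.4% and 100%, the zinc-finger genes between 50.0% and 70.5%, and the 10 tandem families together at 4.67% in each list.

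The groups of genes on this chromosome ranged from nearly all with a start peak to nearly none. Of 9 erythroid, blood group and iron genes, 7, 7 and 6 had a start peak, in the list order used above. KLF1 had 1 start peak per list, at chr19:12887051-12887470 in PRO-seq 1M, and its dREG scores, which are the authors' own value per peak, were 0.561, 0.653 and 0.451. Those scores stood at the 43.3, 63.1 and 29.4 percentiles of their lists. The KLF1 peak was therefore shared by the lists and of middling score. EPOR, the erythropoietin receptor, stood at the 84.0, 80.6 and 48.1 percentiles, and BLVRB, a flavin and biliverdin reductase abundant in red cells, at 82.8, 83.5 and 76.7. FTL, the ferritin light chain, stood at 26.6, 59.9 and 68.9, an order opposite to that of EPOR. BCAM, which carries the Lutheran blood group, lacked a start peak in qPRO-seq 250k alone. ICAM4, the Landsteiner-Wiener blood group protein, and HAMP, the liver hormone hepcidin, had none in any list.

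Of 17 transcription factor genes, 15, 15 and 14 had a start peak. JUNB stood at the 99.6, 87.9 and 89.0 percentiles of the 3 lists and JUND, another AP-1 subunit, at 92.9, 93.6 and 76.4. The start peaks of these 2 genes were thus in the upper part of each list. NFIX, of the nuclear factor I family, had the widest spread of the 14 factors present in all lists, at 84.4, 97.0 and 9.12. KLF2 stood at 77.8, 96.8 and 65.4. CEBPA, a regulator of granulocyte development, had a start peak in both 1M lists and none in qPRO-seq 250k. KLF16 and SPIB, an ETS factor of B cells, had none in any list.

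Of 21 chromatin and polymerase genes, 20, 19 and 18 had a start peak. TRIM28, the corepressor that the Krüppel-associated zinc-finger proteins recruit, stood at the 80.1, 88.5 and 63.9 percentiles. SMARCA4, the ATPase of the BAF remodelling complex, stood at 95.2, 90.6 and 84.1. GATAD2A, a subunit of the NuRD complex, stood at 89.8, 99.9 and 54.6. MED16, of the Mediator tail, had its lowest value in PRO-seq 1M, at 17.7, and stood at 72.6 and 75.4 in the qPRO-seq lists. POLRMT, the mitochondrial RNA polymerase, had a start peak in PRO-seq 1M alone, ELL had none in qPRO-seq 250k, and MED25 had none in any list. PAF1 and MED29 lie head to head and share their top-scored start peak in each list.

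Ribosomal protein genes had 12, 11 and 10 of 13. RPS28 stood at the 97.5, 98.4 and 70.3 percentiles and RPL18 at 94.5, 97.6 and 71.3. RPL36 was in all lists but low in 1 of them, at 52.8, 71.5 and 4.04. RPS15 had a start peak in PRO-seq 1M alone, and RPS9 had none in any list. Of 7 cell cycle and DNA synthesis genes all 7 had a start peak in both 1M lists, and 5 did in qPRO-seq 250k. The 2 without it were POLD1, the catalytic subunit of DNA polymerase delta, and LIG1, a DNA ligase.

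The 10 tandem families formed the other extreme. Of their 107 genes, 5 had a start peak in each list (4.67%, 2.01 to 10.5), and 100 had none in any list. No start peak was found at any of 10 PSG genes, 10 LILR genes, 6 KIR genes, 20 olfactory receptor genes (OR), 3 interferon lambda genes (IFNL) or 9 NLRP genes. For the largest of these, the olfactory receptors, 0 of 20 allows a share of up to 16.1% by its Wilson interval. All 16 LILR and KIR genes, and NLRP2 and NLRP7, lie in a stretch, described further on, where genes of every kind lacked a peak. The kallikreins were the family with most start peaks, at 3, 4 and 4 of 15. KLK1, KLK8 and KLK13 had one in all lists, and KLK2 in both qPRO-seq lists. CYP2S1 had one in both 1M lists, SIGLEC6 in PRO-seq 1M alone and CEACAM19 in qPRO-seq 250k alone. These 7 genes were the only ones among the 107.

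Zinc-finger genes, taken by a symbol beginning ZNF or ZFP, numbered 254 on chromosome 19, 47.4% of the 536 in the annotation. A start peak was found at 154 in PRO-seq 1M (60.6%), 179 in qPRO-seq 1M (70.5%) and 127 in qPRO-seq 250k (50.0%). The other 1218 coding genes of the chromosome, which include zinc-finger genes under other symbols such as ZSCAN1, stood at 54.3%, 55.7% and 43.7%. The zinc-finger share was higher by 6.36 points (-0.365 to 12.8), 14.7 points (8.23 to 20.7) and 6.32 points (-0.393 to 13.02), so that the interval excluded 0 in qPRO-seq 1M alone. With the lists reduced to equal size the qPRO-seq 1M difference was 4.96 points (-1.65 to 11.7), and 0 lay inside it. With peaks at or above the list median the differences were 0.142 points (-6.28 to 6.83), 9.75 points (2.99 to 16.4) and -2.80 points (-8.38 to 3.39), so that the last changed sign, and with p of at most 0.01 the qPRO-seq 250k difference was 1.86 points (-4.63 to 8.57). Whether the difference itself differed between lists was not tested. Zinc-finger genes made up 254 of all 1472 coding genes of the chromosome. They were 24 of the 67 genes with a start peak in qPRO-seq 1M alone and 8 of the 36 in PRO-seq 1M alone. The qPRO-seq 1M list is the longer here, with 2261 peaks against 1693. Of the 254, 35 (13.8%) had a start peak in qPRO-seq 1M but not in PRO-seq 1M, and 10 (3.94%) the reverse. Of the other 1218 genes, 49 (4.02%) and 31 (2.55%) did, so both shares were higher in zinc-finger genes. Many of these genes are near copies of each other, and reads from copies can be placed at the wrong one or left out, so the presence of a peak at a single member is uncertain.

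**Figure D4:**
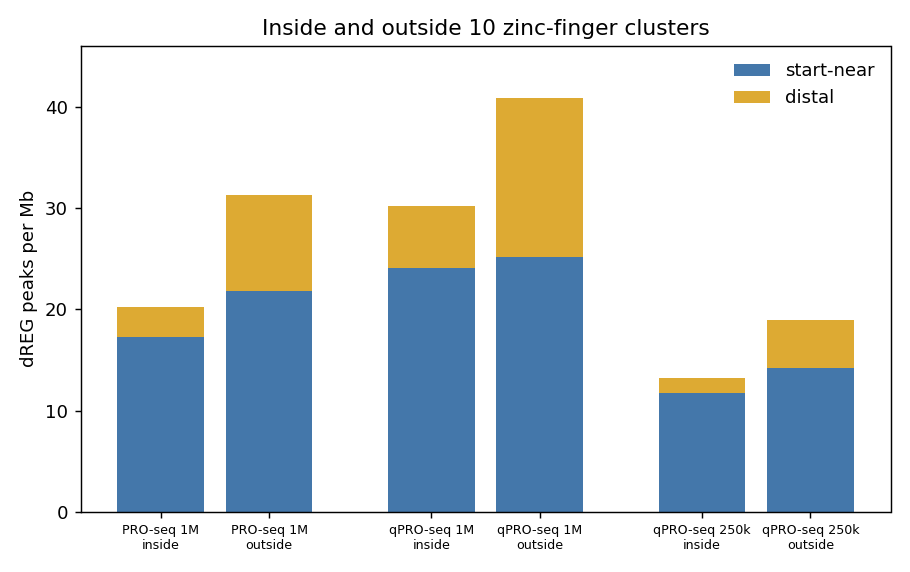
dREG peaks per Mb (y axis, from 0) inside and outside the 10 zinc-finger clusters of chromosome 19, by list, with start-near peaks in blue and distal peaks in yellow. The bars differ mostly in their distal part, which is 3.02, 6.19 and 1.43 peaks per Mb inside and 9.48, 15.7 and 4.72 outside.

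Most zinc-finger genes lie in clusters, defined as at least 6 such genes with gaps of at most 250 kb. The 10 clusters spanned 12.6 Mb and held 309 coding genes, 24.5 per Mb against 25.3 per Mb in the rest of the chromosome. They carried 20.2, 30.2 and 13.2 peaks per Mb, and the rest 31.3, 40.9 and 18.96. The gap was mainly in distal elements. Outside the clusters distal peaks per Mb were 3.14, 2.53 and 3.30 times those inside, while start-near peaks per Mb were 1.26, 1.05 and 1.21 times. With lists of equal size the 3 densities of distal peaks inside clusters were 1.27, 1.35 and 1.43 per Mb. In the full lists, 85.1%, 79.5% and 89.2% of peaks inside clusters were start-near, against 69.7%, 61.6% and 75.1% outside. The differences were 15.4 points (10.0 to 19.97), 17.9 points (13.03 to 22.2) and 14.0 points (7.76 to 18.9). Inside clusters 82 coding genes lacked a ZNF or ZFP symbol, and 41.5%, 50.0% and 31.7% of them had a start peak. Those shares were below the 58.6%, 70.0% and 48.5% of the 227 zinc-finger genes there. The 82 include zinc-finger genes under other symbols, such as HKR1 and ZSCAN1. They also include AC008758.1, which shares a start peak with ZNF564.

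The clusters were unlike one another. On the short arm, the cluster of 26 zinc-finger genes from ZNF653 to ZNF791 (chr19:11483427-12640098) had start peaks at 18, 19 and 18 of them. Its 3 counts were nearly equal, and its top peak was at ZNF564, whose upstream bases are printed above. The cluster from ZNF317 to ZNF846 (chr19:9140380-9793180) had 9, 10 and 10 of 12. Next to the centromere, the cluster from ZNF737 to ZNF254 (chr19:20535825-24129961) was the longest, at 3.59 Mb, with 29 zinc-finger genes and 2 other coding genes. Start peaks stood at 11, 18 and 9 of the 29, and the cluster held 19, 44 and 13 peaks in all. Of its 43 joined regions, 22 were found in qPRO-seq 1M alone. Its top-scored qPRO-seq 1M start-near peak was at ZNF431 (93.5 percentile).

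On the long arm, the cluster from ZNF565 to ZNF573 (chr19:36182060-37817300) also had 29 zinc-finger genes, and 20, 24 and 21 of them had a start peak. The cluster from ZNF175 to ZNF331 (chr19:51571298-53580269) had 25, 29 and 15 of 40. At the long-arm end, the cluster from ZNF264 to ZNF446 (chr19:57191500-58481230) was the largest by gene number, with 43, and had 21, 24 and 14. It held 39, 55 and 25 peaks, of which only 1, 7 and 0 were distal. Its top peak, at ZNF460 (chr19:57280091-57280740), scored 1.26 at the 99.7 percentile of the qPRO-seq 1M list, and it begins downstream of the ZNF460 bases printed above. The cluster with the fewest zinc-finger genes, the 7 from ZNF628 to ZNF581, had start peaks at 7, 6 and 6. The cluster from ZNF787 to ZNF835 had 4, 4 and 3 of 10.

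Promoter sequence from RefSeq, 250 bases before to 50 after each start, was matched for 221 of the 254 zinc-finger genes and for 84 of the 100 tandem family genes with no start peak. A single promoter was read per gene, and it need not be at the transcript start that carried the peak. The median number of CG dinucleotides per 300-base promoter was 22 in the 103 zinc-finger genes with a start peak in all lists and 20 in the 53 with none in any list. In the 419 genes outside both classes with a start peak in all lists it was 27, and in the 84 tandem family genes it was 5. Promoters of zinc-finger genes with and without a start peak were close in CG number. The tandem family genes differ from the 419 both in family and in lacking a start peak, and these cannot be told apart here. Of the other genes without a start peak only 72.7% had promoter sequence, and the median in those 293 was 12. The ETS motif GGAAGTG, searched on both strands, was in 27.2% of the 103 and 22.6% of the 53 zinc-finger promoters, 14.1% of the 419 and 5.95% of the 84. Over 15487 coding promoters of the same length it was in 13.2%. The TATA box TATAAA was in 0% of the 103 and 0% of the 53, 7.40% of the 419 and 16.7% of the 84, against 9.58% of the 15487. The CCAAT box was in 46.6%, 50.9%, 41.8% and 22.6% in the same order, against 36.5%, and the GC box GGGCGG in 65.0%, 71.7%, 76.4% and 28.6%, against 59.1%. The GATA motif AGATAA was in 2.91%, 9.43%, 4.06% and 5.95%, against 7.47%, and the AP-1 motif TGACTCA, which reads TGAGTCA on the other strand, in 2.91%, 1.89%, 3.34% and 4.76%, against 3.64%. No motif contains another, and a match is not a binding site. Promoter sequence covered 79.6% of all coding genes of the chromosome, too few for a comparison over all of them. It covered 78.0% of those on chromosomes 1 to 22 and X, so the values over 15487 promoters are partial as well.

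Where the lists differed on chromosome 19 was read from overlap of at least 1 bp. PRO-seq 1M peaks were met by a qPRO-seq 1M peak in 89.0% of cases (87.4 to 90.4), against 90.6% over chromosomes 1 to 22 and X, and by a qPRO-seq 250k peak in 58.8% (56.5 to 61.2), against 60.2%. The PRO-seq 1M list met 71.2% (69.3 to 73.0) of qPRO-seq 1M peaks, against 63.3%, and the qPRO-seq 250k list met 49.7% (47.7 to 51.8) of them, against 44.1%. For qPRO-seq 250k peaks the share met was 90.8% (88.9 to 92.5) with PRO-seq 1M, against 91.2%, and 96.1% (94.8 to 97.2) with qPRO-seq 1M, against 96.6%. Chromosome 19 thus differed most for the longest list. Its qPRO-seq 1M peaks were met by PRO-seq 1M 8.32 points (6.36 to 10.2) more often than those of other chromosomes, and by qPRO-seq 250k 5.93 points (3.81 to 8.05) more often. The share of PRO-seq 1M peaks met by qPRO-seq 1M differed from that elsewhere by -1.73 points (-3.36 to -0.277).

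Distal peaks were the less shared. Among qPRO-seq 1M peaks of chromosome 19, PRO-seq 1M overlapped 80.6% of start-near and 53.8% of distal ones, a difference of -26.8 points (-30.8 to -22.8). The qPRO-seq 250k list overlapped 60.1% of start-near and 30.7% of distal ones. Inside zinc-finger clusters PRO-seq 1M overlapped 66.9% of qPRO-seq 1M peaks, and outside 72%, a difference of -5.09 points (-10.4 to -0.106). In the other direction, qPRO-seq 1M overlapped 93.3% of the 255 PRO-seq 1M peaks inside clusters and 88.2% of those outside, 5.16 points (1.09 to 8.19) more. Inside the clusters, a smaller share of PRO-seq 1M peaks lacked a qPRO-seq 1M counterpart, and a larger share of qPRO-seq 1M peaks lacked a PRO-seq 1M one. How these shares depend on score was not tested here.

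Joining overlapping peaks of the 3 lists gave 2053 regions on chromosome 19. All 3 lists held 782 of them (38.1%, against 34.5% over chromosomes 1 to 22 and X), and qPRO-seq 1M alone held 564 (27.5%, against 37.0%). Both 1M lists alone held 437 (21.3%, against 18.3%) and PRO-seq 1M alone held 169 (8.23%, against 6.14%). Of the remaining regions, both qPRO-seq lists shared 63, qPRO-seq 250k alone had 26, and it shared 12 with PRO-seq 1M only (background 2.54%, 1.04% and 0.379%). The share held by qPRO-seq 1M alone was 10.2 points lower than on other chromosomes (difference -12.1 to -8.11). Of the regions in all lists, 80.2% were start-near, and of those in qPRO-seq 1M alone, 40.8% were.

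Along the chromosome, qPRO-seq 1M had more peaks than PRO-seq 1M in 54 of 59 bins, fewer in 1 and as many in 4. Among the 43 bins with at least 20 joined regions, the share held by qPRO-seq 1M alone ran from 5% to 52.4%, with a median of 26.6%. The highest shares were at 21 to 22 Mb (11 of 21 regions, 52.4%, 32.4 to 71.7), inside the zinc-finger cluster next to the centromere, at 29 to 30 Mb (9 of 22, 40.9%) and at 41 to 42 Mb (11 of 29, 37.9%). The lowest were at 42 to 43 Mb (1 of 20, 5%, 0.888 to 23.6), at 5 to 6 Mb (3 of 23, 13.04%) and at 18 to 19 Mb (12 of 72, 16.7%). At this number of regions per bin the intervals of neighbours in this order overlap.

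The peaks with the highest qPRO-seq 1M scores that both other lists overlapped were at known starts. They lay at the start of MVB12A, an endosomal sorting gene (chr19:17419211-17420120, score 1.42), at RAB4B, a vesicle-recycling GTPase (chr19:40777771-40778300, score 1.39), and at the transcript AC020914.3 (chr19:51467681-51468530, score 1.33). All 3 were above the 99.9 percentile of the qPRO-seq 1M list. The AC020914.3 peak stood at the 94.0 percentile in PRO-seq 1M and 99.6 in qPRO-seq 250k. Among distal peaks, the top one was intergenic (chr19:48780531-48781190, score 1.24), 12068 bp from the nearest start, and stood at the 98.6, 99.6 and 99.3 percentiles of the 3 lists. The next lay in an intron of TCF3 (chr19:1632751-1633420), 10515 bp from a start, at 99.6, 98.8 and 23.8. The intergenic element was near the top of all 3 lists, and the TCF3 element near the top of both 1M lists only. The third was in an intron of MVB12A and BISPR (chr19:17406811-17407730), at 84.2, 97.9 and 95.2.

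The top peaks held by 1 list alone stood lower in their lists. The top one for PRO-seq 1M was at LTBP4, a matrix protein that binds latent TGF-beta (chr19:40609911-40610260, 69.1 percentile), followed by peaks at SYT3 and INAFM1. The INAFM1 peak lay 60 bp from a peak of another list. For qPRO-seq 1M the top one was at MIA (chr19:40770881-40771650, 87.0 percentile), 6030 bp from a peak of another list and in the same 1 Mb bin as RAB4B. An intergenic peak near MAP3K10 (81.3 percentile) and another 10038 bp from the NFIX start (80.7 percentile) followed. For qPRO-seq 250k the top one was at CIRBP, a cold-inducible RNA-binding protein (chr19:1266281-1266770), at the 56.8 percentile. The other 2, in an intron of KCNN4 and near CDKN2D, stood at 39.8 and 37.4.

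The longest peak-free stretch across all 3 lists spanned the centromere (chr19:24087791-27793080, 3705.29 kb, 0 coding genes). The second longest lay in a gene-dense part of the long arm. No list had a peak in chr19:54025001-55084840, which is 1059.84 kb long and holds 40 coding genes, more than any other peak-free stretch of the chromosome. Of these, 16 were KIR and LILR genes. The others include RPS9, from the list of ribosomal genes, and, named after their values were seen, PRPF31 (a pre-mRNA splicing factor), CNOT3 (a subunit of the CCR4-NOT deadenylase), NDUFA3 (a respiratory complex I subunit), TSEN34 (a tRNA splicing endonuclease subunit) and MBOAT7 (a phospholipid acyltransferase). The edges were alike in the 3 lists, whose own empty stretches were 1104.7 kb, 1059.84 kb and 1104.44 kb long with 41, 40 and 41 coding genes. The genome has 94 bins of 1 Mb with 30 or more coding genes, 24 of them on chromosome 19, and 5 of the 94 had at most 1 qPRO-seq 1M peak. The other 4 were at 30 to 31 Mb and 32 to 33 Mb of chromosome 6, at 30 to 31 Mb of chromosome 21 and at 7 to 8 Mb of chromosome 8. The lists also hold peaks on alternate sequences of chromosome 19, 2 in PRO-seq 1M, 2 in qPRO-seq 1M and 0 in qPRO-seq 250k. Peak lists do not show whether reads from the stretch were placed on alternate sequences or left out, and this was not tested. The lack of peaks therefore does not show that these 40 genes were silent.

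Of the KIR and LILR genes in the stretch, 15 of 16 had promoter sequence, with a median of 8 CG dinucleotides. Of the other coding genes there, 19 of 24 had it, with a median of 20. The promoter window of RPS9, 1 of these 19, held 22. RPS9 was the only listed ribosomal gene of the 13 without a start peak in any list, while its CG number was at the median of zinc-finger genes with a start peak in all lists. Among the other long peak-free stretches, those of 994.26 kb (chr19:31351001-32345260) and 728.21 kb (chr19:27794421-28522630) held 0 coding genes. One of 818.96 kb (chr19:42402161-43221120) held 12 coding genes, 9 of them PSG genes and the others CEACAM1, CEACAM8 and CXCL17. Another of 712.98 kb (chr19:56478221-57191200) held 11, with the imprinted gene PEG3, ZIM2, ZIM3 and 5 zinc-finger genes by symbol. A stretch of 940.22 kb (chr19:29943021-30883240) held 1 coding gene, ZNF536.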

How the data were processed

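The 6 libraries were represented by 3 dREG peak lists, 1 per group, and each list was named for both replicates per the labels. The authors' steps are known only in part. Per the submitters' processing notes, fastp 0.20.0, Bowtie2 2.3.5.1, deepTools 3.1.3 and UMI-tools were used and the build was hg38/GRCh38. The dREG version, its thresholds and the pooling of replicates are not given in the sources used here. The score of each peak is as the authors deposited it and has no fixed unit, so it ranked peaks within its own list only. The deposited p-value of each peak lay between 0 and 0.05. No read counts were analysed, so depth limits are unknown.

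Peaks were placed in 1 Mb bins by the authors' centre column, starts are printed counted from 1, and gene positions came from GENCODE release 29 (GRCh38). Joined regions share at least 1 bp. Wilson and Newcombe 95% intervals give counting error. A score percentile is the share of peaks of the same list, on chromosomes 1 to 22 and X, that score no higher. A gene with several start peaks is given by its top-scored one. No test was run between lists. The overlap, start-distance, merging and interval steps were tested on simulated lists. Promoters came from RefSeq (GRCh38.p14) by symbol or identifier, and 1171 of 1472 coding genes matched. Python 3.11.15, numpy 2.4.6, pandas 2.3.3, scipy 1.17.1 and matplotlib 3.10.9 were used.

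The members and gene lists were chosen with earlier results of these data known. Some listed genes are not reported here. The rule for named genes listed erythroid, transcription factor, chromatin, ribosomal, cell cycle and tandem family genes, the top-scored shared and unshared peaks, the top start-near peak of each zinc-finger cluster, and the bins with the most and fewest peaks or highest and lowest share in qPRO-seq 1M alone. Alternatives were a p limit of 0.01, merging within 500 bp, equal list sizes (15562), peaks above the list median, a 1000 bp window, coding starts alone, 50% reciprocal overlap and cluster gaps of 100 kb.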

Additional observations from a re-analysis of the deposited data

How the results depend on the processing

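No paired analysis was possible because each group had 1 list and the columns carry no replicate. For the same reason no replicate was left out. Of 123 values under alternatives, 55 were labelled the same and 59 moved. Another 7 kept their direction with an interval that now includes 0, and 2 changed sign. A share or density was the same inside its main interval, and a peak number within a set ratio. A difference was the same, whatever its size, if it kept its sign and its interval still included or excluded 0. Equal list sizes cannot move the values of qPRO-seq 250k alone, the smallest list, and these are among the 55. The cause of the changes was not tested. In what follows P stands for PRO-seq 1M, Q for qPRO-seq 1M and U for qPRO-seq 250k, P by Q for the share of P peaks that Q overlaps, and values of 3 lists are in the order P, Q, U.

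With lists of equal size, chromosome 19 held 1041 P and 908 Q peaks, of which 78.4% and 75.3% were start-near, and 45.4% and 41.2% of coding genes had a start peak. The P start-near difference from other chromosomes was 1.92 points, the Q zinc-finger difference 4.96 points, and distal peaks per Mb in clusters 1.27 and 1.35. Overlap was 72.2% (P by Q), 76.2% (P by U), 82.3% (Q by P), 80.1% (Q by U), 78.1% (U by P) and 72.6% (U by Q).

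With peaks at or above the list median, 782, 1142 and 485 peaks were left, with start-near shares of 80.9%, 72.5% and 82.5%, genes with a start peak at 38.9%, 46.3% and 27.5%, and distal peaks per Mb in clusters of 1.11, 2.38 and 0.635. The start-near difference was 0.537 points for P and 0.443 points for U, and the zinc-finger difference for U was -2.80 points. Overlap was 55.5% (P by U), 64.3% (Q by P), 44.4% (Q by U) and 87.2% (U by P).

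A window of 1000 bp gave start-near shares of 78.0%, 73.1% and 82.4% and distal peaks per Mb in clusters of 2.06, 3.89 and 0.714. Starts of coding genes alone gave shares of 67.6%, 60.0% and 72.5%. Within gene-density groups, an alternative chosen after seeing the data, the start-near difference was -1.36, 1.10 and 0.948 points. A p of at most 0.01 gave 51.7%, 55% and 39.4% of genes with a start peak, 4.68 distal Q peaks per Mb in clusters and a U start-near difference of 2.69 points. Overlap was then 86.5% (P by Q), 55.2% (P by U), 47.2% (Q by U) and 94.1% (U by Q). A cluster gap of 100 kb gave 2.00 distal P peaks per Mb.

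Merging within 500 bp left 1443 Q peaks, 61.5% of them start-near, and 3.81 distal per Mb in clusters, and U overlapped 63.3% of P and 52.9% of Q peaks. When each of a pair had to share 50% of its length, the shares were 77.6% and 49.3% of P, 58.1% and 39.8% of Q and 80.4% and 86.6% of U peaks, in the order of pairs used for equal sizes. Depth is unknown for the lists, so a longer list and a deeper library cannot be told apart, and the absence of a peak does not show absence of transcription.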
